A study of Mus musculus with 24 samples.

Results

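The P2X receptors, the ion channels opened by extracellular ATP, were examined as the 7 genes P2rx1 to P2rx7. Their members were the rows of the count files whose Ensembl identifier carried one of these symbols, 7 of 47643 gene identifiers. RNA-seq had been performed on 24 libraries of 100 GFP-positive cells sorted from dissociated L4 dorsal root ganglia (DRG). They came from the side opposite to a sciatic nerve that had been crushed 3 d before. There were 3 libraries from each of 8 mice, 4 control and 4 Nav-Tsc2, in both of which replicates 1 and 2 were males and replicates 3 and 4 were females. Control mice carried Tsc2 flox/+ with Nav1.8-Cre and Rosa26-ZsGreen, and Nav-Tsc2 mice carried Tsc2 flox/null with the same Nav1.8-Cre and Rosa26-ZsGreen alleles. All mice were on a mixed C57BL/6 and AJ background and aged 8 to 9 weeks. Both genotypes therefore carried the Cre driver, the ZsGreen reporter and a floxed Tsc2 allele, and Nav-Tsc2 mice carried a null Tsc2 allele in every cell where control mice carried a wild-type one. The Nav1.8 promoter restricts recombination to sensory neurons that express this sodium channel, most of them nociceptors. No mouse was free of nerve injury, so every value below comes from an animal with a contralateral crush.

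P2X subunits assemble as trimers into nonselective cation channels, and ATP released from damaged or stretched tissue opens them on the endings of sensory neurons. In nociceptors, P2X3 forms homomeric channels that desensitize fast and joins P2X2 in heteromeric channels with a more sustained current. P2X4 and P2X7 are best known from microglia and macrophages, P2X1 from smooth muscle and platelets, P2X5 from muscle and epithelia, and P2X6 forms few channels of its own and joins P2X2 or P2X4. Tsc2 restrains mTORC1, the kinase complex that promotes protein synthesis and cell growth.

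Counts of the 3 libraries were summed per mouse and are given as normalized CPM, counts scaled to a common library total with TMM factors. Per mouse, 50092284 to 61266577 counts fell on genes in control and 47959617 to 61290435 in Nav-Tsc2 mice. Genotypes were compared with the edgeR quasi-likelihood test over all 17178 genes that passed its low-count filter. A gene was called when its Benjamini-Hochberg adjusted p was under 0.05 and its log2 fold change exceeded 0.5 in either direction. Tsc2 itself, which the labels state was altered, was at 20.9 ± 5.18 CPM in control and 8.87 ± 1.52 CPM in Nav-Tsc2 mice (mean ± SD, n = 4 each, no overlap). Among the cells of other kinds that could have entered the sort, macrophages and endothelial cells had low marker sums in both genotypes, and these sums were higher in every Nav-Tsc2 mouse than in any control mouse. The macrophage sums are given beside P2rx4 and the endothelial sums at the end of the Results. Their relation to the members was not tested. In RNA from pools of cells, a smaller number of cells of a type and less RNA per cell cannot be told apart.

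Of the 7 members, 6 passed the low-count filter and P2rx1 did not. P2rx6 was called lower and P2rx4 higher in Nav-Tsc2 mice, 1 of 6 in each direction, while P2rx2, P2rx3, P2rx5 and P2rx7 were not called by edgeR. Across all genes tested, 8.00% were called lower and 9.12% higher, so 1 gene in each direction does not set the family apart from the background. The groups of mice did not overlap for the same 2 members, P2rx4 and P2rx6, where 12.3% of all genes tested lay wholly lower and 14.6% wholly higher in Nav-Tsc2 mice. The median log2 fold change of the 6 members was 0.54, and that of all genes tested was 0.01.

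**Figure D1:**
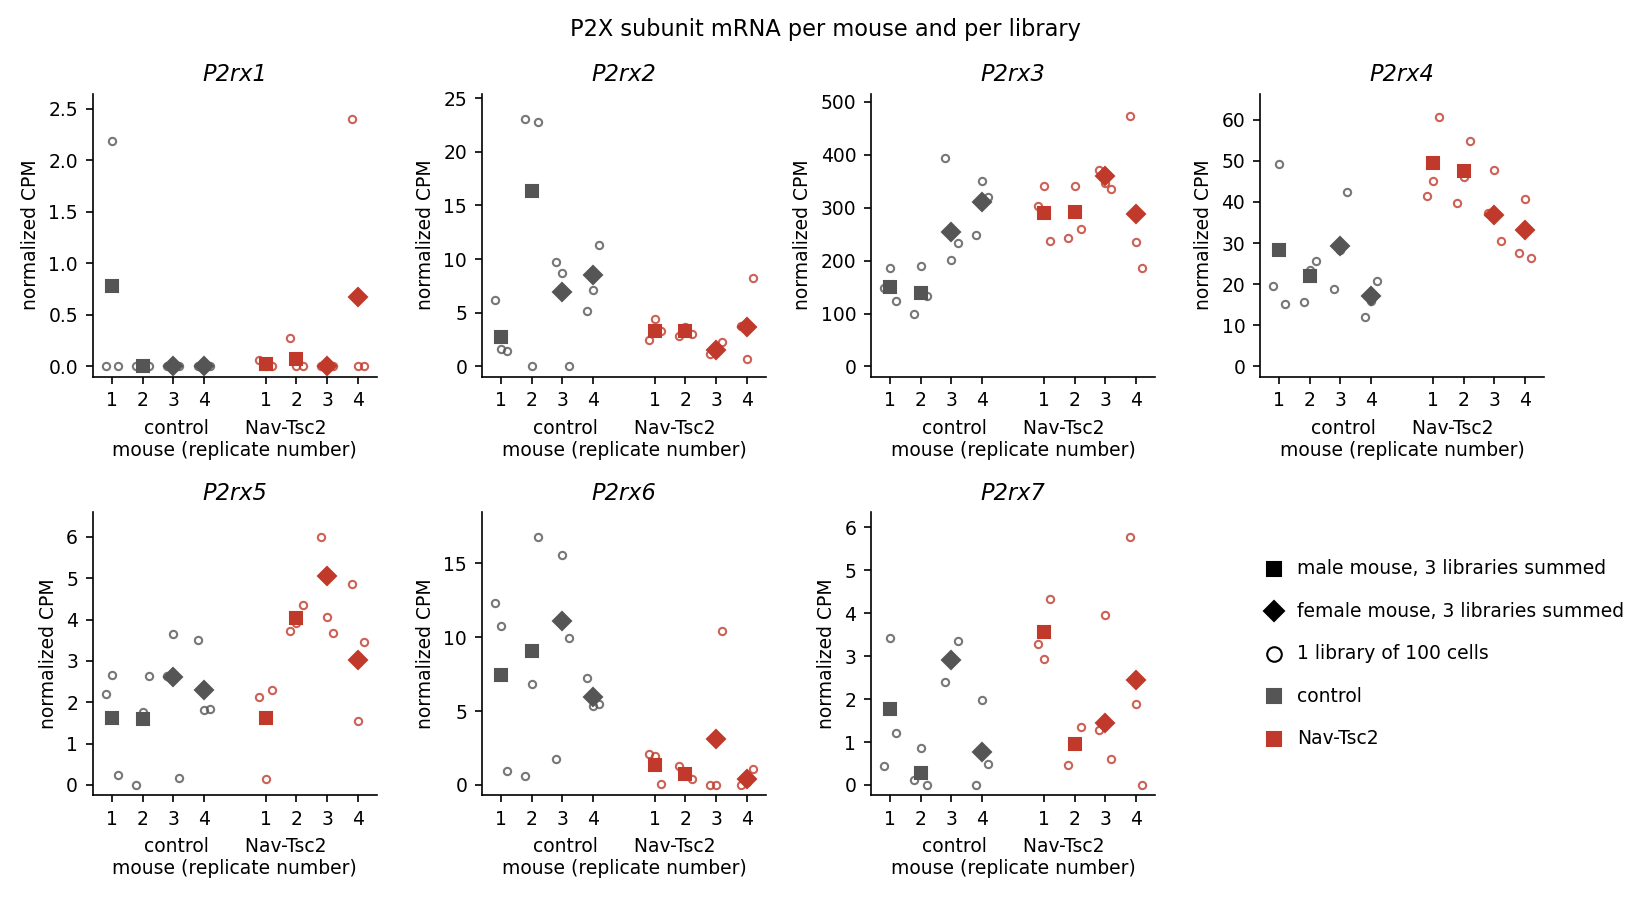
Normalized CPM of each P2X subunit gene (y axis, linear, its own scale in each panel) in every mouse (x axis, replicates 1 to 4 of each genotype). Filled squares are male and filled diamonds female mice with their 3 libraries summed, and open circles are the single libraries of 100 cells. The Nav-Tsc2 mice lie wholly above the control mice for P2rx4 and wholly below them for P2rx6.

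P2rx3 was by far the most abundant member. P2rx3 (ENSMUSG00000027071.14, GRCm38 chr2:84998583-85037462, minus strand) was at 151, 139, 254 and 310 CPM in control replicates 1 to 4. In Nav-Tsc2 replicates 1 to 4 it was at 291, 293, 359 and 288 CPM. The male control mice were the lowest of all 8, and of the female control mice replicate 3 lay below every Nav-Tsc2 mouse and replicate 4 within their range, so the genotypes overlapped. The group means were 214 ± 82.5 and 308 ± 34.4 CPM (SD, n = 4), with a log2 fold change of 0.53 (SE 0.24, edgeR adjusted p = 0.155), and P2rx3 was not called. It was called higher with sex as a covariate (adjusted p = 0.0366, beside 9.51% of all genes), in limma-voom on single libraries with a random effect for mouse (adjusted p = 0.0264, beside 15.9%) and without control replicate 4 (log2 fold change 0.76, adjusted p = 0.0360, beside 8.85%). Over its alternatives the log2 fold change lay between 0.37 and 0.76 and the adjusted p between 0.0264 and 0.306.

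P2rx3 was also the 1 member called between males and females of a genotype. In control mice the 2 females were above the 2 males by 0.96 on the log2 scale (SE 0.14, edgeR adjusted p = 0.0380), where 0.524% of all genes tested were called higher in control females. In Nav-Tsc2 mice the same difference was 0.15 (adjusted p = 1.00). Between genotypes, P2rx3 rose by 1.01 on the log2 scale in males (SE 0.14, adjusted p = 0.0044), where 8.98% of all genes were called higher. In females the difference was 0.20 (adjusted p = 0.468). The difference between these effects, the genotype by sex interaction, was -0.81 (SE 0.20, unadjusted p = 0.0042) and did not pass the adjustment over all genes (adjusted p = 0.304). Only 0.00582% of all genes, 1 of 17178, were called lower for that term. The interaction of P2rx3 was called with DESeq2 (adjusted p = 0.0403), where 1.26% of all genes were called lower, and without the low-count filter (adjusted p = 0.0060), where 1.15% were, and ranged from -0.98 to -0.64 over its alternatives. With 2 mice of each sex per genotype, and replicates 1 and 2 being the males throughout, sex and anything else shared by equal replicate numbers cannot be told apart.

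The sum of the markers of nonpeptidergic nociceptors, the neurons in which P2X3 is mostly found, was likewise lowest in the 2 control males. The order of the other mice differed from that of P2rx3. The 11 genes summed to 885 and 964 CPM in the control males and to 2314 and 3065 CPM in the control females. In the Nav-Tsc2 mice they summed to between 2832 and 3456 CPM. Of these 11, 1 was called higher in Nav-Tsc2 mice (Cd55, a complement regulator, at a log2 fold change of 1.23 and adjusted p = 0.0392) and none lower. Mrgprd, the receptor that defines the class, was not called at 159 ± 144 CPM in control and 537 ± 47.7 CPM in Nav-Tsc2 mice (adjusted p = 0.0935). Its highest control mouse, at 325 CPM, was nevertheless below its lowest Nav-Tsc2 mouse, at 486 CPM. Of all genes tested, 14.6% lay wholly higher in this way. The 8 markers of peptidergic nociceptors ran the other way, from 19386 and 20088 CPM in control males to 9834 and 10320 CPM in control females and 4768 to 7624 CPM in Nav-Tsc2 mice, with 3 called lower and 1 higher. Of 6 itch neuron markers, 4 (Nppb, Sst, Il31ra and Mrgpra3) were called lower and 1 (Nts) higher. Of 3 markers of low-threshold C fibers, 1 (Th) was called higher, and of 6 markers of large myelinated neurons none was called. Among all genes tested, 8.00% were called lower and 9.12% higher. The part of these neuron classes in the levels of P2rx3 and P2rx6 was not tested.

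**Figure D2:**
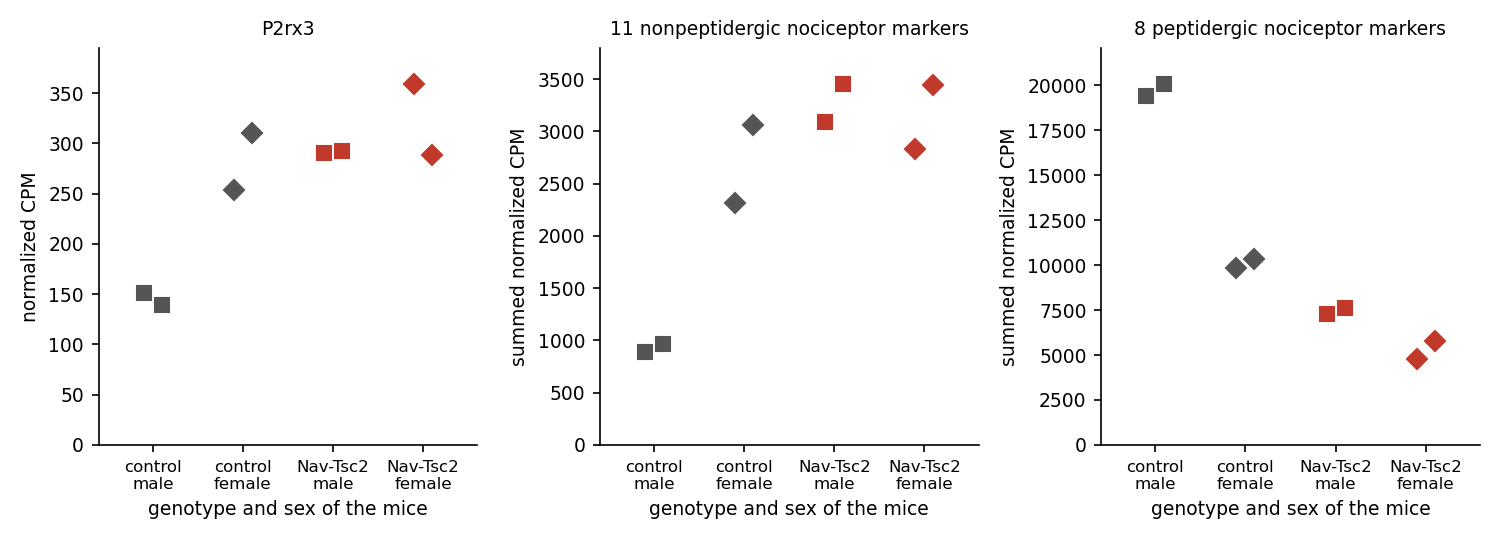
P2rx3 (left, normalized CPM) and the summed normalized CPM of 11 nonpeptidergic (middle) and 8 peptidergic (right) nociceptor markers in the 8 mice, grouped on the x axis by genotype and sex, 2 mice each. Squares are males and diamonds females. The 2 control males are the lowest mice for P2rx3, at 139 and 151 CPM, and for the nonpeptidergic markers, and the highest for the peptidergic markers.

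P2rx2, the partner of P2rx3 in the slowly desensitizing channel, was lower in the Nav-Tsc2 mice by its mean without being called. P2rx2 (ENSMUSG00000029503.16, chr5:110339812-110343212, minus strand) was at 2.75, 16.3, 6.95 and 8.51 CPM in control replicates 1 to 4. The Nav-Tsc2 replicates were at 3.33, 3.29, 1.50 and 3.64 CPM. Control replicate 1 lay among the Nav-Tsc2 mice, and the other 3 control mice lay above all of them. The log2 fold change was -1.55 (SE 0.50, edgeR adjusted p = 0.0551), from means of 8.64 ± 5.68 and 2.94 ± 0.97 CPM (n = 4). It was called lower with DESeq2 (adjusted p = 0.0084), where 9.30% of all genes were called lower, and without control replicate 1 (-1.85, adjusted p = 0.0154, beside 6.46%). Without control replicate 2, the highest mouse, the log2 fold change was -1.05 (adjusted p = 0.149), and in limma-voom on the single libraries it was -0.79 (adjusted p = 0.501).

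The spread of P2rx2 lay mainly between libraries of 1 mouse. Control replicate 2 had 23.1 CPM in library A and 22.8 CPM in library C but 0.07 CPM, a single count, in library B. Control replicate 3 likewise had 9.75 and 8.70 CPM in libraries A and B and 0.08 CPM, again 1 count, in library C. On the log2(CPM + 0.1) scale the SD between libraries of a control mouse was 2.71, against an SD of 0.76 between the means of the control mice. In the Nav-Tsc2 mice the corresponding values were 0.93 and 0.50, and the 12 libraries ranged from 0.69 to 8.20 CPM. A mean over 3 libraries varies less than a single library through averaging alone. The control libraries with 1 count also weigh heavily on this log scale. Control libraries had counts for 15925 to 18544 genes and Nav-Tsc2 libraries for 17891 to 20466 genes. The part of this difference in the spread was not tested. All 24 libraries had at least 1 P2rx2 count, and 8 of 12 control libraries but 1 of 12 Nav-Tsc2 libraries exceeded 5 CPM.

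P2rx4 was called higher in Nav-Tsc2 mice. P2rx4 (ENSMUSG00000029470.15, chr5:122707544-122729738, plus strand) encodes a channel with high calcium permeability that also resides in lysosomes. Control replicates 1 to 4 were at 28.3, 22.1, 29.4 and 17.1 CPM, and Nav-Tsc2 replicates at 49.4, 47.5, 36.9 and 33.1 CPM. Every Nav-Tsc2 mouse was above every control mouse. The means of 24.2 ± 5.73 and 41.7 ± 7.95 CPM (n = 4) gave a log2 fold change of 0.78 (SE 0.20, edgeR adjusted p = 0.0218). The adjusted p rose past 0.05 without control replicate 2 (0.0545), without Nav-Tsc2 replicate 1 (0.0698) and without Nav-Tsc2 replicate 2 (0.0686), with log2 fold changes of 0.74, 0.69 and 0.71. Within males the fold change was 0.94 (adjusted p = 0.0449) and within females 0.59 (adjusted p = 0.224), and the interaction of -0.35 was not called (adjusted p = 0.835). The single libraries overlapped, ranging from 11.9 to 49.3 CPM in control and from 26.5 to 60.8 CPM in Nav-Tsc2 mice.

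Macrophages, which express both P2rx4 and P2rx7, were represented by 7 markers that summed to 1.23 to 4.56 CPM in control and 9.73 to 18.8 CPM in Nav-Tsc2 mice. All 7 had a control mean under 1 CPM, 5 passed the low-count filter and 1 was called, Cx3cr1, which was higher in Nav-Tsc2 mice at a mean of 5.71 against 0.033 CPM. Csf1r, at means of 0.80 and 3.71 CPM, and Cd68, at 0.50 and 2.03 CPM, were also higher in every Nav-Tsc2 mouse than in any control mouse without being called (adjusted p = 0.119 and 0.168). Aif1 and Mrc1 were at overlapping levels in the 2 genotypes (adjusted p = 0.834 and 0.876). The defining markers C1qa and Ptprc were near 0 in both, C1qa at means of 0.020 and 0.021 CPM and Ptprc at 0.20 and 0.013 CPM. The part of macrophages in the level of P2rx4 was not tested.

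P2rx6 had the largest change of the members and was called lower in Nav-Tsc2 mice. P2rx6 (ENSMUSG00000022758.12, chr16:17561885-17577800, plus strand) was at 7.47, 9.05, 11.1 and 5.92 CPM in control replicates 1 to 4, and at 1.32, 0.76, 3.10 and 0.39 CPM in Nav-Tsc2 replicates 1 to 4. The lowest control mouse was above the highest Nav-Tsc2 mouse. From 8.38 ± 2.20 to 1.39 ± 1.20 CPM (n = 4), the level was 6.02-fold lower as a ratio of means, and the fitted log2 fold change was -2.59 (SE 0.58, edgeR adjusted p = 0.0120). P2rx6 was called in all 17 alternatives, with log2 fold changes from -4.13 to -2.28 and adjusted p up to 0.0434. The fold change was -2.99 within males (adjusted p = 0.0566) and -2.28 within females (adjusted p = 0.161), and the interaction of 0.71 was not called (adjusted p = 0.914).

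The P2rx6 counts of Nav-Tsc2 replicate 3 came from 1 library. Library C held 10.4 CPM, or 190 counts, and libraries A and B held 0. In the other Nav-Tsc2 libraries P2rx6 did not exceed 2.07 CPM. Control libraries ranged from 0.63 to 16.8 CPM, and 9 of 12 exceeded 5 CPM against 1 of 12 in Nav-Tsc2 mice. Of the exon bases of P2rx6, 13.9% overlap Slc7a4, a transporter gene on the opposite strand, and the library kit does not mark strand, so reads from the shared part cannot be told apart. The strand and overlap settings of the counting are not given in the sources used here, so these reads may have been left out or counted for either gene. Slc7a4 was also called lower, at 71.8 ± 17.3 CPM in control and 34.7 ± 2.48 CPM in Nav-Tsc2 mice (log2 fold change -1.05, SE 0.17, edgeR adjusted p = 0.0024). Its part in the P2rx6 counts was not tested.

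The sequences before the starts of the called members, P2rx6 and P2rx4, are shown because these genes, whose products can assemble with each other, moved in opposite directions. They are the 250 bases before the RefSeq start on the gene strand, GRCm38.p6 chr16:17561635-17561884 (plus) for P2rx6 and chr5:122707294-122707543 (plus) for P2rx4. RefSeq promoters were matched for 4 of the 7 members, P2rx1, P2rx4, P2rx6 and P2rx7, and P2rx2, P2rx3 and P2rx5 are named only. Capitals mark matches, on either strand, to any of 6 motifs. These were TATAAA, of core promoters, then CCAAT, bound by NF-Y, then GGGCGG, bound by Sp factors, then CACGTG, bound by TFEB and related factors, then TGTGGT, bound by Runx factors, and lastly TGACGTCA, the cyclic AMP response element.
P2rx6: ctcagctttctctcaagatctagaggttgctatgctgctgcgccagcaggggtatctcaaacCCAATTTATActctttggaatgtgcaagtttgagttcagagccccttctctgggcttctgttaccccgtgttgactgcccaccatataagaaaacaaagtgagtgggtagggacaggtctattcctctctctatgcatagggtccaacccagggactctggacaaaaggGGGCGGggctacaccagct
P2rx4: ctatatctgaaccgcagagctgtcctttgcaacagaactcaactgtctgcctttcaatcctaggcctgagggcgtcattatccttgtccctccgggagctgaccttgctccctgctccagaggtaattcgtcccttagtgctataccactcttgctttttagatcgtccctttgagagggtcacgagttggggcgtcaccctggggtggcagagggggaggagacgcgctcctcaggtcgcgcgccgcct
The P2rx6 window held CCAAT 188 bases before the start, TATAAA on the other strand 184 bases before it, overlapping CCAAT by 1 base, and GGGCGG 19 bases before it. The P2rx4 window held none of the 6 motifs. Among 32851 windows of this length before gene starts, 33.8% held CCAAT, 12.4% TATAAA and 32.7% GGGCGG. For the motifs in neither window the shares were 6.02% for CACGTG, 14.05% for TGTGGT and 1.55% for TGACGTCA. The GC content was 50.8% for P2rx6 with 3 CpG dinucleotides and 57.2% for P2rx4 with 13, beside a median of 52.4% over all windows. These matches describe the letters only, and no binding was measured.

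**Figure D3:**
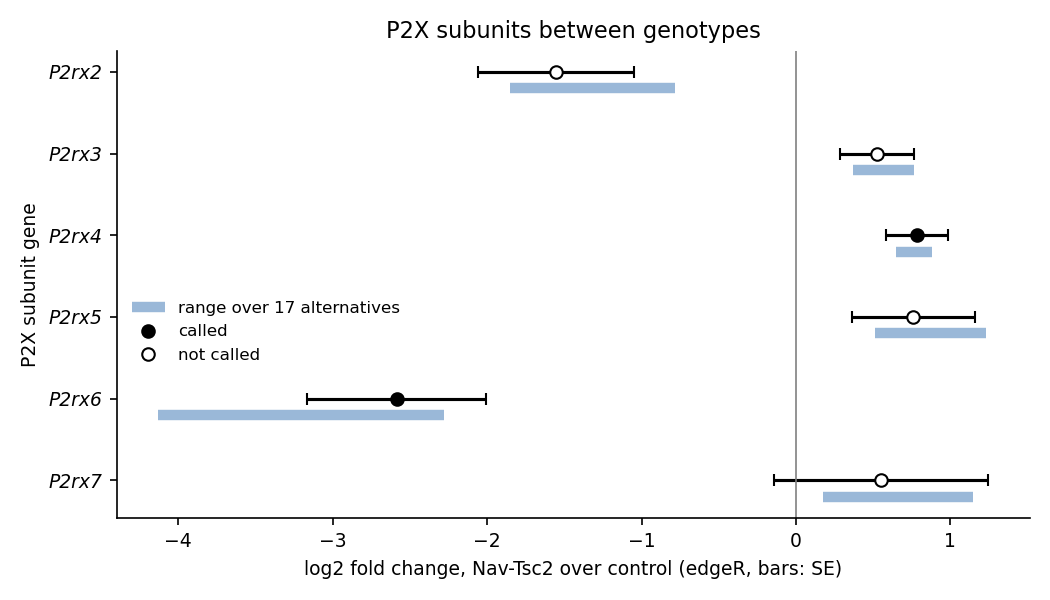
Log2 fold change of the 6 tested members, Nav-Tsc2 over control (x axis, points with SE bars from edgeR, filled where called, n = 4 mice per genotype), and the range over 17 alternative analyses (blue bars). P2rx6 at -2.59 and P2rx4 at 0.78 are called, the other 4 members are not, and no bar of alternatives reaches 0.

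The remaining members were low in both genotypes. P2rx5 (ENSMUSG00000005950.14, chr11:73160421-73172685, plus strand) was at 1.63, 1.59, 2.60 and 2.29 CPM in control and 1.63, 4.03, 5.06 and 3.01 CPM in Nav-Tsc2 replicates 1 to 4. Of the Nav-Tsc2 mice, 3 were above all control mice and replicate 1 lay among them. The log2 fold change of 0.76 (SE 0.40, edgeR adjusted p = 0.218) was not called in any of 17 alternatives.

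P2rx7 (ENSMUSG00000029468.17, chr5:122643911-122691432, plus strand), the subunit of the ATP-gated pore of immune cells, was at 1.78, 0.28, 2.91 and 0.76 CPM in control and 3.56, 0.96, 1.45 and 2.45 CPM in Nav-Tsc2 replicates 1 to 4. The genotypes overlapped over most of their range, and the log2 fold change of 0.55 (SE 0.69, edgeR adjusted p = 0.636) was called in none of 17 alternatives. P2rx7 ends 16111 bases before P2rx4 begins on the same strand. P2rx4 was called higher and P2rx7 was not, and the difference between their fold changes was not tested.

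P2rx1 (ENSMUSG00000020787.14, chr11:72999103-73015200, plus strand) was at 0.78 CPM in control replicate 1 and listed at 0 in the other 3 control mice. In Nav-Tsc2 replicates 1 to 4 it was at 0.021, 0.071, 0 and 0.68 CPM. All 46 of its control counts were in library B of replicate 1, and library A of Nav-Tsc2 replicate 4 held 40 counts where no other Nav-Tsc2 library held more than 4. Platelet markers, of a cell type that carries P2X1, summed to 4.47 to 7.43 CPM in control and 1.09 to 1.93 CPM in Nav-Tsc2 mice. Nearly all of this sum was Itga2b, an integrin gene called lower at means of 5.68 and 1.48 CPM (log2 fold change -1.94, adjusted p = 0.0027), and the platelet genes Pf4, Ppbp and Gp9 had means of 0.224 CPM or less in both genotypes. The 5 smooth muscle and pericyte markers summed to 5.59 to 46.3 CPM in control and 20.0 to 148 CPM in Nav-Tsc2 mice. Most of the higher sums was Rgs5, which was not called at means of 10.7 and 54.0 CPM, while Acta2 (0.13 and 7.25 CPM) and Pdgfrb (6.89 and 14.8 CPM) were called higher without overlap of the mice. The part of both was not tested, and P2rx1 was too low for a comparison at this depth.

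The single libraries differed least for the abundant members. On the log2(CPM + 0.1) scale the SD between libraries of a mouse was 0.40 in both genotypes for P2rx3 and 0.60 in control and 0.30 in Nav-Tsc2 mice for P2rx4. For P2rx6 it was 1.75 and 2.42, for P2rx5 1.90 and 1.04, and for P2rx7 1.53 and 1.69. P2rx3 ranged from 99.0 to 395 CPM over the 12 control libraries and from 186 to 473 CPM over the 12 Nav-Tsc2 libraries. A single library supplied a median of 42.9% of the P2rx3 CPM of a control mouse summed over its 3 libraries, but 73.9% for P2rx7. P2rx5 was at 0 in 1 of 24 libraries, P2rx6 in 3 and P2rx7 in 3, all those of P2rx6 in Nav-Tsc2 mice.

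To set the members beside each other, levels were divided by exon length (CPM per kb). In control mice P2rx3 was at 76.6 ± 29.6 CPM per kb, above 95.9% of the genes tested, followed by P2rx4 at 3.45 ± 0.82, P2rx2 at 3.36 ± 2.21, P2rx6 at 2.10 ± 0.55, P2rx5 at 0.85 ± 0.21, P2rx7 at 0.24 ± 0.20 and P2rx1 at 0.074 ± 0.15 (SD, n = 4). P2rx4 and P2rx2, and P2rx2 and P2rx6, overlapped between mice and each was the higher in 2 of 4 mice. P2rx6 was above P2rx5 and P2rx5 above P2rx7 in 4 of 4 mice without overlap. In Nav-Tsc2 mice the per-kb order was P2rx3 at 110.3 ± 12.3, P2rx4 at 5.94 ± 1.13, P2rx5 at 1.43 ± 0.61, P2rx2 at 1.14 ± 0.38, P2rx7 at 0.35 ± 0.19, P2rx6 at 0.35 ± 0.30 and P2rx1 at 0.073 ± 0.12. P2rx6 lay beside P2rx7 there, each being the higher in 2 of 4 Nav-Tsc2 mice. P2rx3 supplied 87.2% ± 5.46 of the per-kb sum of the 7 members in control and 92.2% ± 1.11 in Nav-Tsc2 mice, P2rx2 4.32% ± 3.93 and 0.98% ± 0.38, and P2rx6 2.65% ± 1.01 and 0.28% ± 0.21. The sum itself was 86.7 ± 28.9 CPM per kb in control and 119.6 ± 12.2 CPM per kb in Nav-Tsc2 mice.

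The balance between subunits that can share a channel was compared as the log2 ratio of their counts within a mouse, with 1 count added to both, which does not depend on the scaling of libraries. For each 100 P2rx3 counts, control replicates 1 to 4 had 1.83, 11.8, 2.74 and 2.75 P2rx2 counts and Nav-Tsc2 replicates 1.15, 1.13, 0.42 and 1.27. All control mice were above all Nav-Tsc2 mice. The mean log2 ratio of P2rx2 over P2rx3 was -4.81 ± 1.18 in control and -6.77 ± 0.75 in Nav-Tsc2 mice, a difference of -1.96 (exact two-sided permutation test, n = 4 each, p = 0.0286, adjusted over 3 ratios p = 0.0429). The unadjusted p is the smallest that 4 mice against 4 allow, and it is the same for every ratio that separates. The adjusted p was lowered by P2rx6 over P2rx4, which had the same unadjusted p. The outcome of that ratio was fixed in advance, as given below. The adjusted p is therefore not taken to show that P2rx2 over P2rx3 passed the adjustment. Of single genes tested, 12.3% lay wholly lower and 14.6% wholly higher in Nav-Tsc2 mice. How often ratios of other gene pairs separate was not examined.

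For each 100 P2rx4 counts, there were 26.4, 41.1, 37.7 and 34.7 P2rx6 counts in control replicates 1 to 4 and 2.71, 1.64, 8.46 and 1.23 in Nav-Tsc2 replicates. The groups again did not overlap. Since P2rx6 lay wholly lower and P2rx4 wholly higher in Nav-Tsc2 mice, this was fixed in advance. The permutation p of this ratio could only be the smallest possible and adds nothing to the 2 calls. The log2 ratio of P2rx6 over P2rx4 was -1.53 ± 0.28 in control and -5.26 ± 1.23 in Nav-Tsc2 mice, a difference of -3.73 (exact two-sided permutation test, n = 4 each, p = 0.0286, adjusted p = 0.0429). With the mean of the log2 ratios of single libraries in place of summed counts, the differences were -1.04 for P2rx2 over P2rx3 (adjusted p = 0.171) and -4.40 for P2rx6 over P2rx4 (adjusted p = 0.0857), and neither passed. The ratio of P2rx1 over P2rx5 differed by 0.06 (exact permutation p = 0.971) and rested on the added count, since P2rx1 was at 0 in 4 of 8 mice.

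**Figure D4:**
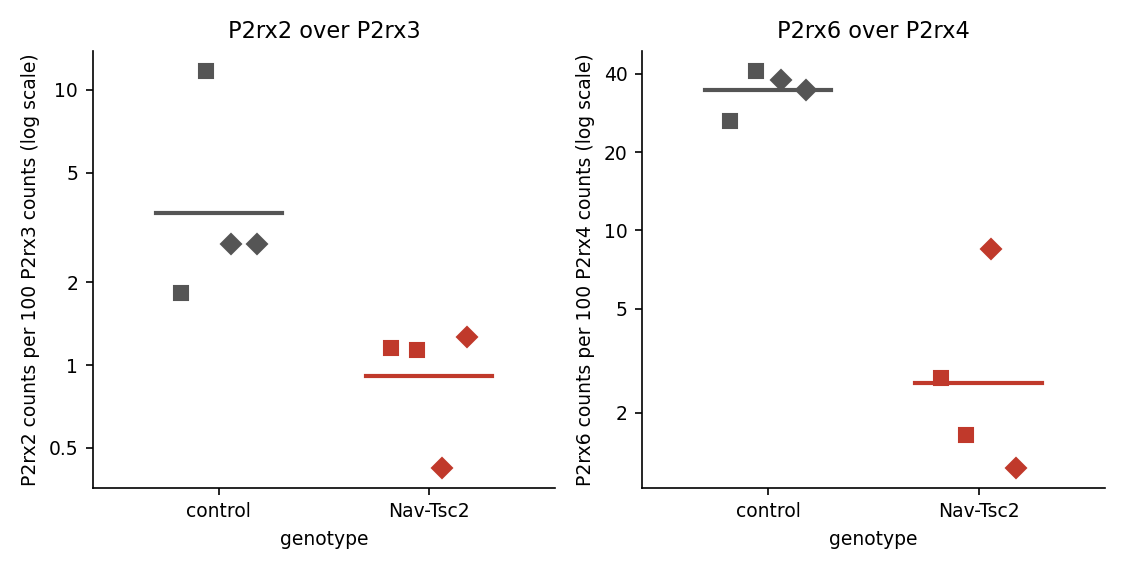
P2rx2 counts per 100 P2rx3 counts (left) and P2rx6 counts per 100 P2rx4 counts (right) in each mouse, on log y axes, by genotype on the x axis. Squares are males, diamonds females and lines the geometric means of 4 mice. All control mice lie above all Nav-Tsc2 mice in both panels, from 1.83 to 11.8 against 0.42 to 1.27 on the left and from 26.4 to 41.1 against 1.23 to 8.46 on the right.

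Within genotypes, the 3 members with a mean of at least 5 CPM varied between libraries apart from each other. Over the 24 libraries, with log2(CPM + 1) centred on the genotype mean, Pearson's r was -0.10 between P2rx2 and P2rx3, -0.37 between P2rx2 and P2rx4 and -0.05 between P2rx3 and P2rx4. The libraries of a mouse share that mouse, so these values are descriptions. Among 10184 genes, those most like P2rx2 were Pld1 (r = 0.86), Jak1 (0.77) and Ostm1 (0.75). Those most like P2rx3 were Idh1 (r = 0.82), Prkar2b (0.81) and Srgap3 (0.80). For P2rx4 they were Wdr45 (r = 0.68), Rbm19 (0.68) and Ctnna2 (0.65).

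The other genes of purinergic signalling, which release, degrade or sense ATP and adenosine, were listed as 33 genes in 5 groups. Of these, 25 passed the low-count filter, 4 were called lower, 2 were called higher and 19 were not called, beside 8.00% lower and 9.12% higher among all genes. Their median log2 fold change was -0.17. Among the G protein-coupled P2Y receptors, 1 of 4 tested was called, P2ry2, a receptor for ATP and UTP, which fell from 6.82 ± 2.40 to 2.14 ± 0.82 CPM (log2 fold change -1.67, SE 0.37, edgeR adjusted p = 0.0124) without overlap of the mice. P2ry1, an ADP receptor and the most abundant of the group, was at 23.5 ± 8.45 and 16.8 ± 10.7 CPM and was not called. Of 3 tested adenosine receptors, Adora2b, coupled to cyclic AMP formation, rose from 3.47 ± 1.64 to 22.9 ± 8.67 CPM (log2 fold change 2.72, SE 0.43, adjusted p = 0.0022) without overlap. Adora1, the inhibitory adenosine receptor, was at 25.0 ± 9.83 and 24.1 ± 6.34 CPM.

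Among 4 tested genes of ATP storage and release, Panx2, a pannexin, was called lower at 7.24 ± 2.95 and 2.74 ± 0.63 CPM (log2 fold change -1.40, adjusted p = 0.0264), a call that was lost in 7 of 17 alternatives. Lrrc8a, a subunit of the volume-regulated anion channel and the most abundant gene of the group, was at 805 ± 165 and 609 ± 141 CPM and was not called. Of 10 tested ectonucleotidases, Acpp, the prostatic acid phosphatase of nonpeptidergic nociceptors that makes adenosine from AMP, was called higher at 178 ± 66.6 and 452 ± 185 CPM (log2 fold change 1.34, adjusted p = 0.0259). That call was lost in 5 of 17 alternatives. Alpl, alkaline phosphatase, was called lower at 3.84 ± 1.39 and 0.96 ± 0.33 CPM (log2 fold change -1.99, adjusted p = 0.0085). Of 4 genes of adenosine uptake and metabolism, Ada, adenosine deaminase, was called lower at 22.5 ± 9.00 and 6.40 ± 1.72 CPM (log2 fold change -1.81, adjusted p = 0.0049). Adk, adenosine kinase, the most abundant of them, was at 963 ± 328 and 853 ± 116 CPM and was not called.

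**Figure D5:**
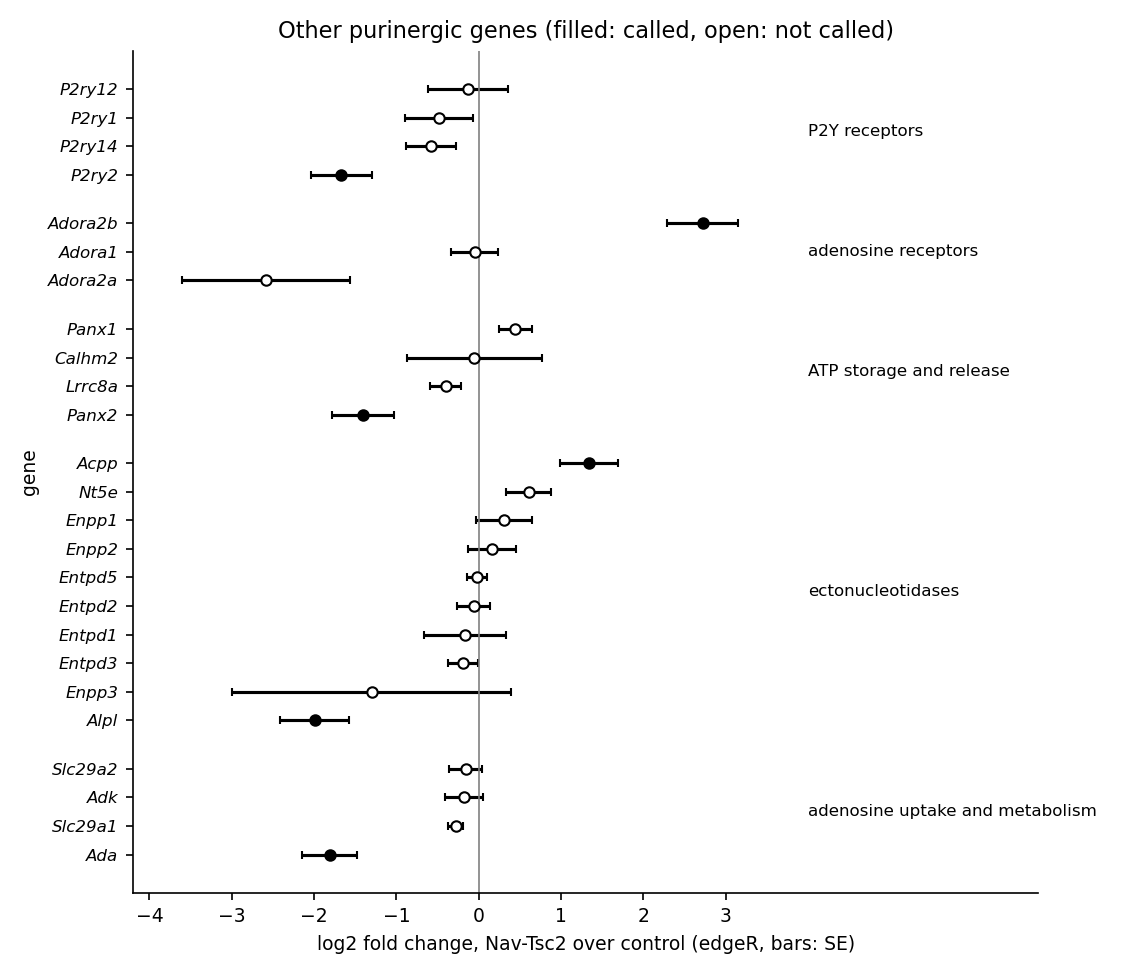
Log2 fold change, Nav-Tsc2 over control (x axis, points with SE bars from edgeR), of the 25 purinergic genes other than P2X subunits that passed the low-count filter, by group. Filled points are called. Adora2b at 2.72 and Acpp at 1.34 lie to the right, and P2ry2, Panx2, Alpl and Ada, between -1.99 and -1.40, to the left.

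The levels of cells other than neurons differed between genotypes as well. The endothelial list of 6 genes summed to 0.33 to 1.85 CPM in control and 7.73 to 20.1 CPM in Nav-Tsc2 mice with 3 of 3 tested called higher, while Pecam1, Cdh5 and Cldn5 were under 0.5 CPM in both. The 10 satellite and Schwann cell markers summed to 1492 to 1713 and 514 to 836 CPM, with 1 called lower, S100b. S100b alone was at 939 ± 166 CPM in control and 98.6 ± 71.2 CPM in Nav-Tsc2 mice and carried the fall of the sum, and the other 9 were not called. The part of these cells in the values of P2rx2, P2rx4, P2rx5 and P2rx6 was not tested.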

How the data were processed

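Libraries were prepared with the SMARTer Ultra Low RNA kit, without strand marks or molecular identifiers, and sequenced as single 50-base reads. With STAR and HTSeq, the authors aligned reads to mm10 and made counts of genes, and they deposited 1 raw count per gene and library (versions and annotation are not given in the sources used here). Their deposited DESeq2 comparison, with normalized counts, fold changes and p-values, was not used. Reads not assigned to a gene, 47.6 to 55.9% of the totals, were left out. Libraries held 8339220 to 34228180 counts on genes.

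Per-mouse sums of counts were tested with edgeR 4.0.16 (TMM, filterByExpr, quasi-likelihood F-test) in R 4.3.3, after a trial on simulated data. Standard errors were obtained by dividing each log2 fold change by the root of its F. Sex terms came from a model with genotype, sex and their product. Alternatives used DESeq2 1.42.0, limma 3.58.1 (voom), other scalings, sex as a covariate, a replicate block, no low-count filter, no limit on the fold change, other ways of combining libraries, and each mouse left out. Permutation tests used SciPy 1.17.1. Names and positions came from GENCODE M21 (GRCm38). Members and lists were chosen with earlier results of these data known. The genes named were all 7 members, Tsc2, in each purinergic group those called and the most abundant one, and for each member with a mean of at least 5 CPM the 3 most like it. Slc7a4 and single marker genes were named after their values were seen.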

Additional observations from a re-analysis of the deposited data

Results flagged for a closer look

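By Dixon's test, 1 mouse lay far from the other 3 in 6 of 32 sets of values, and about 1.6 such sets arise by chance. P2rx1 was at 0.779 CPM in control replicate 1 and at 0 in the other control mice, and at 0.677 CPM in Nav-Tsc2 replicate 4, where the next mouse had 0.071 CPM. The log2 ratio of P2rx1 over P2rx5 in control replicate 1, -1.05, follows from the same 46 counts. Nav-Tsc2 replicate 3 stood apart for P2rx2, at 1.50 CPM below 3.29 to 3.64 CPM, and for P2rx3, at 359 CPM above 288 to 293 CPM, and therefore also for their log2 ratio, at -7.89. Its P2rx2 was low in all 3 libraries, between 1.12 and 2.30 CPM.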

How the results depend on the processing

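The log2 fold changes of P2rx5, P2rx6, P2rx7, P2ry2, Adora2b, Alpl and Ada kept their direction and their side of the thresholds in all 17 alternatives, and no tested fold change of a member changed sign. With DESeq2, 2 P2X members were called lower, P2rx2 joining P2rx6. With sex as a covariate and with the 24 libraries in limma-voom, 2 were called higher, P2rx3 joining P2rx4, and the 24 libraries also gave 4 other purinergic genes called higher. The median of the 3 libraries, an alternative chosen after seeing the data, gave 1. For the genotype by sex interaction, DESeq2 and the fit without the low-count filter each called 1 member, P2rx3. Leaving out 1 mouse gave 1 to 2 members called lower and 0 to 2 called higher, and 1 to 3 other purinergic genes called higher. The mean of single-library ratios moved P2rx2 over P2rx3 to -1.04 (adjusted p = 0.171) and P2rx6 over P2rx4 to -4.40 (adjusted p = 0.0857). Without 1 mouse these differences lay between -2.29 and -1.39 and between -4.30 and -3.37, and none passed, since 4 mice against 3 cannot. The difference for P2rx1 over P2rx5 turned to -0.90 with single libraries, to -0.47 with a pseudocount of 5 and lay between -1.003 and 1.50 without 1 mouse.

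A pairing of mice by replicate number was looked for over 10185 genes of at least 5 CPM. The deviations from the genotype mean correlated at 0.070, 0.090, 0.017 and 0.073 for replicates 1 to 4, all under the limit of 0.1, and not every mouse correlated best with its own number, so the numbers were not taken as pairs. With a replicate block 1 member was called lower and 1 higher as before, 1 other purinergic gene was called higher, Panx2 and Acpp having lost their calls, and over all genes 1116 were called lower and 1329 higher. The sign-flip test within replicate numbers gave the same differences, -1.96 and -3.73, at an adjusted p = 0.1875, which 4 pairs cannot take under 0.05.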
